A study of Mus musculus with 2 samples.

Results

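The single-cell libraries of control and Taf4IEC enteroids were examined for 10 genes of the Notch pathway and of the choice between absorptive and secretory fates. They are the ligand genes *Dll1*, *Dll4* and *Jag1*, the receptor genes *Notch1* and *Notch2*, the Hes family genes *Hes1* and *Hes6*, and the secretory factor genes *Atoh1*, *Gfi1* and *Sox4*. The genes were taken as a list by name, which was drawn up with earlier results of these data known, and all 10 were found in both count tables, which list 16665 genes in all. Enteroids are epithelial structures grown in vitro from intestinal crypts. Both cultures came from the ileum of 4-month-old C57Bl6/129sv mice and were grown for 8 days before live cells were captured. The culture called Taf4IEC is labelled KO and had 1 µM 4-hydroxytamoxifen (4-OHT) for 3 days, which activates a Cre recombinase driven by the villin promoter of intestinal epithelium and recombines the floxed alleles of *Taf4*, a subunit gene of the general transcription factor TFIID. The control library is labelled WT and ethanol, whereas the methods of the study give it as *Taf4* lox/lox enteroids without Cre that also had 4-OHT. The effect of the *Taf4* alleles and that of 4-OHT therefore cannot be told apart from the labels, and how many mice gave each culture is not given in the sources used here. With 1 library per condition no test between conditions was possible, and all intervals below are 95% intervals for counting error only.

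Notch signalling passes between neighbouring cells. A ligand of the Delta or Jagged type on 1 cell binds a Notch receptor on the next, the receptor is cut, and its intracellular part enters the nucleus and joins the DNA-binding protein RBPJ to switch on target genes. In intestinal crypts the best known target is *Hes1*, a repressor of *Atoh1*, the bHLH factor required for secretory cells. Cells that escape the signal express *Atoh1* together with Delta ligands, become Paneth, goblet or enteroendocrine cells, and signal in turn to their neighbours, which stay progenitors or become enterocytes. This exchange is known as lateral inhibition.

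Promoters of the genes that the comparisons below turn on are shown as the 250 bases before the annotated start (RefSeq sequences, mouse build GRCm38.p6, 5′ to 3′ on the strand of the gene). They were chosen because *Dll1* and *Dll4* were lower and *Jag1* was higher in the stem-like cells of the library labelled Taf4IEC, and *Sox4* because its promoter was the only one with the *Rbpj* core. Capitals mark matches, on either strand, to TGGGAA (the core of the *Rbpj* site) or to CAGCTG (an E-box, the kind of site that bHLH factors bind).
*Dll1*, chr17:15376933-15377182, minus strand: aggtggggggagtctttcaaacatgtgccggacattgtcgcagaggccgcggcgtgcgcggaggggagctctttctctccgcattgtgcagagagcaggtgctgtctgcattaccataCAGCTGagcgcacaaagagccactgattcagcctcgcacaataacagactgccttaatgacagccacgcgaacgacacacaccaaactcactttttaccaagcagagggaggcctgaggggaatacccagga
*Dll4*, chr2:119325534-119325783, plus strand: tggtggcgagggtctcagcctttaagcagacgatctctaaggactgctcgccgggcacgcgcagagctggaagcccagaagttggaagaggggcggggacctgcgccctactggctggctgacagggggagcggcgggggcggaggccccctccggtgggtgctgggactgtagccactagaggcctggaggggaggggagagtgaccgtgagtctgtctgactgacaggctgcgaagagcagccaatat
*Jag1*, chr2:137116521-137116770, minus strand: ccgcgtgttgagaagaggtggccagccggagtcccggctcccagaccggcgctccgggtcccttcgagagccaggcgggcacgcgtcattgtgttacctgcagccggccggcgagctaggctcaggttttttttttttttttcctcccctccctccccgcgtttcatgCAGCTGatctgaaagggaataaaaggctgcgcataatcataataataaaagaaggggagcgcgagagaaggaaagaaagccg
*Sox4*, chr13:28953700-28953949, minus strand: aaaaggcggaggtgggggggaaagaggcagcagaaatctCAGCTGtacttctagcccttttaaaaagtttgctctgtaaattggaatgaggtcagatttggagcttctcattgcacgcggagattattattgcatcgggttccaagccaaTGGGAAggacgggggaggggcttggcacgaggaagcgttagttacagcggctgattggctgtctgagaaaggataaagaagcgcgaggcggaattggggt
An entry was found for 9 of the 10 genes, with 12 promoters, and *Hes1* had none. TGGGAA stood in 1 of the 12, that of *Sox4*, and in 21.6% of all 32851 promoters of this length. CAGCTG stood in 5 of the 12, with 1 match each for the printed promoter of *Dll1*, for *Jag1*, for *Sox4* and for both promoters of *Hes6*, and in 13.0% of all promoters. The other *Dll1* promoter (chr17:15375824-15376073), which is not printed, held neither. A further E-box, CAGATG, was in none of the 12 and in 14.4% of all, and no match overlapped another. A match is a description of these letters and not a binding site.

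The control library held 39947009 unique molecular identifiers (UMIs, counted molecules) in 2563 cells and the library labelled Taf4IEC 24990128 in 1811 cells. Median depth differed, at 16749 and 2254 UMIs per cell, and 2 cell barcodes were shared by the libraries. No control cell listed more than 4999 genes, whereas Taf4IEC cells reached 5997. Epithelial genes (*Epcam*, *Krt8*, *Krt18*, *Cdh1* and *Vil1*) were abundant, with summed levels of 33.6 and 49.3 UMIs per 10000, and of 10 markers of immune, stromal, endothelial and glial cells 6 and 5 were at 0. *Taf4* itself had 278 and 236 UMIs (log2 ratio 0.44, 0.18 to 0.70), which is not the lower level that the label would give. Counts of transcript ends need not cover the deleted exons, and the library is therefore named below by its label only. A level below is the sum of the UMIs of a gene over cells, divided by all UMIs and given per 10000, and each log2 ratio sets Taf4IEC over control. A gene was called past the fold from a ratio of 1.5 in either direction, provided that the libraries together held 200 UMIs of it.

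Over all cells, *Jag1* was higher and *Notch1* lower in the library labelled Taf4IEC, and the other genes stayed within 1.5-fold. Past the fold were thus 1 of 9 genes upwards and 1 of 9 downwards, whereas 16.0% of all 10002 genes were past it upwards and 7.47% downwards, so that these counts are near the background. The median log2 ratio of the 10002 genes was 0.16, and that of the 9 genes was -0.10.

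Among the ligands, *Jag1* (chr2:137081451-137116520, GRCm38) had 334 UMIs in the control and 422 in the library labelled Taf4IEC, which are 0.0836 and 0.169 per 10000 and a log2 ratio of 1.01 (0.80 to 1.23), or 0.86 above the median of all genes. *Dll1* (chr17:15367354-15376932), the Delta ligand of early secretory cells, had 331 and 143 UMIs, a level of 0.0829 against 0.0572 and a log2 ratio of -0.53 (-0.83 to -0.25). *Dll4* (chr2:119325784-119335666), the other Delta ligand needed in crypts, had 167 and 110 UMIs with a log2 ratio of 0.07 (-0.29 to 0.43), which turned to -0.08 relative to the median. The ligands thus did not move as a group. Of the receptors, *Notch1* (chr2:26457902-26503822) had 920 and 343 UMIs, a level of 0.230 against 0.137 and a log2 ratio of -0.75 (-0.93 to -0.57). *Notch2* (chr3:98013538-98150367) had 124 and 105 UMIs and a log2 ratio of 0.44 (0.05 to 0.82). The intervals of the receptors do not overlap.

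*Hes1* (chr16:30065357-30067796) had 5476 and 2777 UMIs, levels of 1.37 and 1.11 and a log2 ratio of -0.30 (-0.37 to -0.24). *Hes6* (chr1:91411483-91414038), a Hes family member that counteracts *Hes1*, had 5710 and 3324 UMIs and a log2 ratio of -0.10 (-0.17 to -0.04). *Atoh1* (chr6:64729125-64731245) had 392 and 295 UMIs, levels of 0.0981 and 0.118 and a log2 ratio of 0.27 (0.04 to 0.49). *Hes1* and *Atoh1* thus lay on opposite sides of 0, both within 1.5-fold. *Sox4* (chr13:28948919-28953699), an HMG-box factor of secretory and enteroendocrine progenitors, had 15188 and 6595 UMIs, levels of 3.80 and 2.64 and a log2 ratio of -0.53 (-0.57 to -0.48). *Gfi1* (chr5:107716655-107725805), a repressor that acts downstream of *Atoh1* in Paneth and goblet cells, had 72 and 38 UMIs and was not counted. The mix of cells moves with these values. The stem-like class described below took 55.6% of the control UMIs and 36.3% of the Taf4IEC UMIs, and the enterocyte-like class 11.1% and 36.5%. When the Taf4IEC classes were weighted to the shares of the control, the log2 ratio of *Hes1* was 0.14 instead, that of *Notch1* was -0.34 and that of *Notch2* was 1.14, while *Jag1* was at 1.25 and *Dll1* at -0.73. Scaling to TMM totals also brought *Dll1* (-0.73) and *Sox4* (-0.72) past the fold and turned *Dll4* to -0.12, with *Jag1* at 0.82 and *Notch1* at -0.94. With every cell thinned to 2000 UMIs, *Dll1* turned to 0.16 and *Notch1* was at -0.30.

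**Figure D1:**
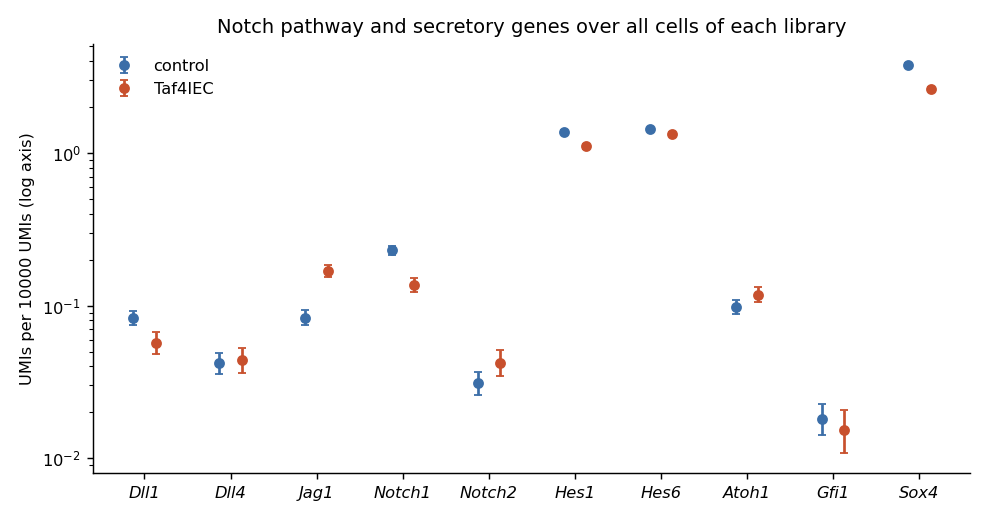
Levels of the 10 genes over all cells of the control (blue) and Taf4IEC (red) library, in UMIs per 10000 UMIs on a log axis, with 95% Poisson intervals (smaller than the point where none is seen). *Jag1* is 1.01 higher and *Notch1* 0.75 lower on the log2 scale in the library labelled Taf4IEC, with clear gaps between the intervals, and *Hes1* and *Hes6* lie close together.

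To see where in the epithelium the genes were expressed, each library was clustered alone, with these genes and a wider list of Notch genes left out of the genes used for clustering, and the 27 clusters were named from markers. Stem-like clusters, named from *Lgr5*, *Olfm4* and 10 further markers, held 1056 control and 428 Taf4IEC cells. Enterocyte-like clusters (such as *Apoa1* and *Fabp1*) held 231 and 314 cells, Paneth/goblet-like clusters (such as *Lyz1* and *Muc2*) 277 and 191, and enteroendocrine-like clusters (such as *Chga* and *Cck*) 248 and 216. A tuft-like cluster of 15 cells was found in the library labelled Taf4IEC only, and 751 control and 647 Taf4IEC cells stayed unnamed, with median depths of 2172 and 652 UMIs. The stem-like class is made of different clusters in the libraries. In the control its largest clusters were led by the S phase genes *Hist1h1b* and *Pclaf* (327 cells) and by the mitosis genes *Cenpf* and *Cdc20* (234 cells), and in the library labelled Taf4IEC by *Cdc20* and *Cenpa* (216 cells, median 2314.5 UMIs) and by *Ccnd1*, *Myc*, *Olfm4* and *Lgr5* (178 cells). The control Paneth/goblet-like class was a single cluster led by Paneth and goblet markers together, whereas the Taf4IEC class had a defensin-led cluster of 104 shallow cells and a cluster of 87 deep cells led by *Muc2* and *Zg16*.

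Levels were ordered over the 4 named classes that both libraries hold, without the tuft-like and the unnamed cells. Among these the receptors and *Hes1* were highest in stem-like cells, Delta ligands and secretory factors in the secretory classes. In the control, *Hes1* stood at 1.79 UMIs per 10000 in stem-like, 0.635 in Paneth/goblet-like, 0.541 in enterocyte-like and 0.418 in enteroendocrine-like cells. The Taf4IEC levels were 2.06, 0.396, 0.655 and 0.1003 in the same classes. Stem-like cells exceeded enteroendocrine-like cells 4.27-fold (3.51 to 5.26) among control cells and 20.5-fold (13.9 to 31.8) among Taf4IEC cells, and only the middle pair of the control did not differ beyond its interval. *Notch1* stood at 0.304, 0.119, 0.0792 and 0.157 in the control in that order of classes, and at 0.225, 0.0292, 0.0669 and 0.165 in the library labelled Taf4IEC. It was highest in stem-like cells of both libraries, although in the library labelled Taf4IEC the lead over enteroendocrine-like cells was within the interval. *Notch2* was highest in stem-like cells as well, at 0.0369 and 0.0839, and rested on at most 11 UMIs in any other named class. The unnamed cells, outside this order, stood higher for *Notch2*, at 0.0424 and 0.126, and for Taf4IEC *Notch1*, at 0.233. Their intervals overlap those of the stem-like cells.

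The ligands had different homes. *Dll1* was highest in Paneth/goblet-like cells of the control, at 0.325, against 0.145 in enteroendocrine-like, 0.0522 in stem-like and 0.0271 in enterocyte-like cells. In the library labelled Taf4IEC enteroendocrine-like and Paneth/goblet-like cells did not differ beyond the interval, at 0.169 and 0.149, and stem-like and enterocyte-like cells stood at 0.0221 and 0.0208. *Dll4* was led by enteroendocrine-like cells in both libraries, at 0.203 and 0.221, which is 8.66-fold (5.74 to 13.0) and 25.0-fold (11.8 to 60.8) above stem-like cells. *Jag1* differed less between classes: its control levels ran from 0.0644 in stem-like to 0.105 in Paneth/goblet-like cells with no neighbours in that order differing beyond their intervals, and its Taf4IEC levels ran from 0.136 in enterocyte-like to 0.195 in stem-like cells. The ends of each order did differ, 1.63-fold (1.15 to 2.26) for Paneth/goblet-like over stem-like cells of the control and 1.44-fold (1.14 to 1.82) for stem-like over enterocyte-like Taf4IEC cells. In the unnamed cells *Jag1* stood at 0.142 (0.114 to 0.175) and 0.291 (0.196 to 0.415, 30 UMIs), above each of these classes. These intervals overlap that of the highest class of each library.

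*Atoh1* and *Gfi1* marked the Paneth/goblet-like class, which was named without them. *Atoh1* stood at 0.549 in that class of the control and at 0.0450, 0.0165 and 0.00452 in stem-like, enteroendocrine-like and enterocyte-like cells, and in the library labelled Taf4IEC at 0.838, 0.0210, 0.00803 and 0.00878. The class held 66.8% of all *Atoh1* UMIs of the control and 87.5% of those of the library labelled Taf4IEC, and 83.3% and 92.1% of those of *Gfi1*. Among the 4 classes *Sox4* was highest in enteroendocrine-like cells, at 9.71 and 9.87, and lowest in enterocyte-like cells, at 0.120 and 0.193, a difference of 81.0-fold (61.7 to 108.5) and 51.1-fold (43.9 to 59.9). *Hes6* had the same highest and lowest of the 4 classes, with 2.76 and 3.44 in enteroendocrine-like cells and 0.577 and 0.719 in enterocyte-like cells. In the 15 tuft-like cells of the library labelled Taf4IEC, *Sox4* (19.8), *Hes6* (3.79), *Dll1* (0.514) and *Notch2* (0.0935, 2 UMIs) stood above their levels in each of the 4 classes. For *Hes6* (3.01 to 4.71) and *Notch2* (0.0113 to 0.338) the intervals overlap those of the highest of these classes in that library. Marker lists of other classes were not at 0 within a class, for instance Paneth/goblet markers summed to 33.6 and 132.6 per 10000 in enteroendocrine-like cells, so that low levels of a gene outside its main class may hold free RNA, which was not tested.

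**Figure D2:**
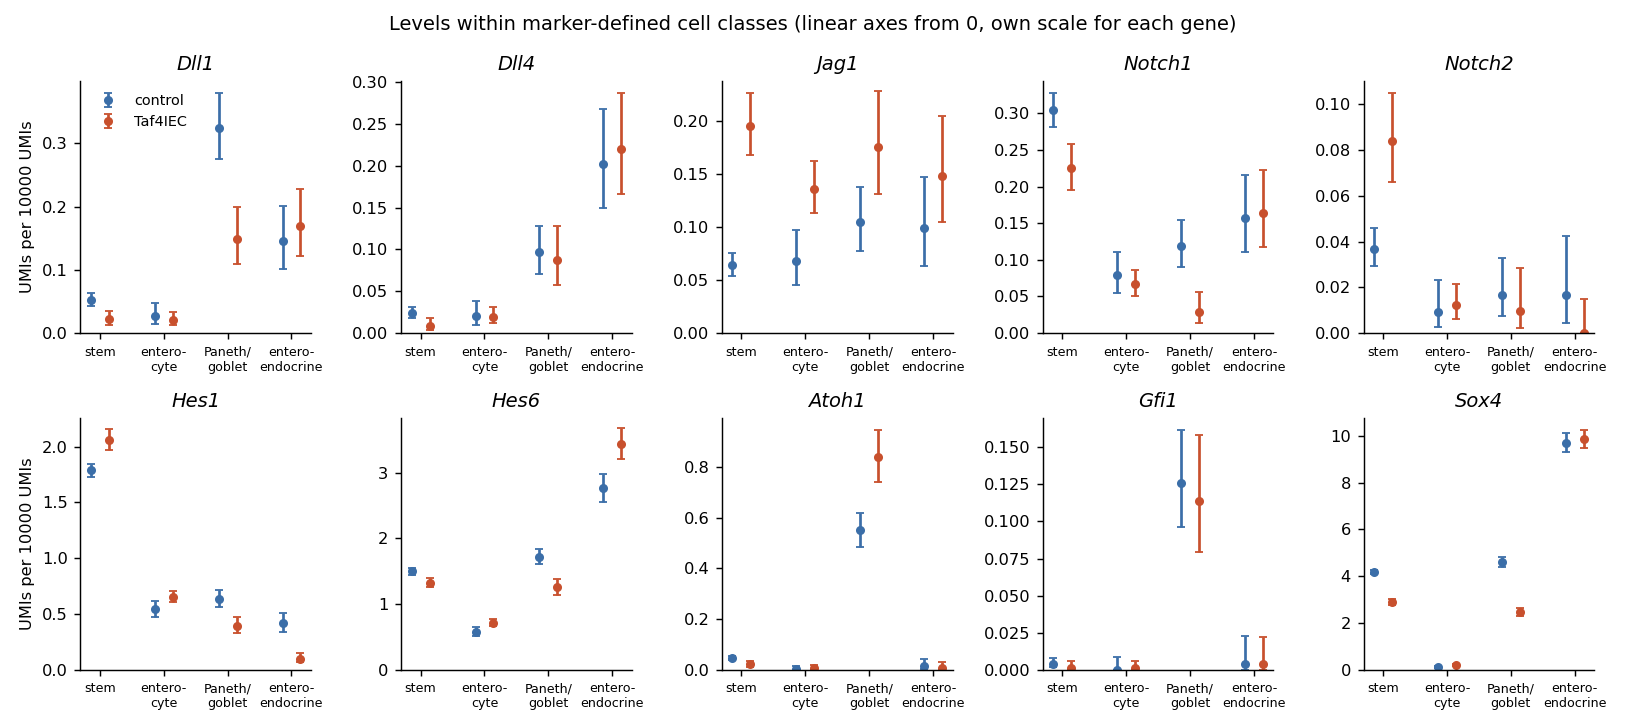
Levels of each gene in UMIs per 10000 UMIs within the stem-like, enterocyte-like, Paneth/goblet-like and enteroendocrine-like cells of the control (blue) and Taf4IEC (red) library, with 95% Poisson intervals and linear axes that start at 0 and differ between genes. Among these 4 classes, *Hes1*, *Notch1* and *Notch2* peak in stem-like cells, *Atoh1* and *Gfi1* in Paneth/goblet-like cells, and *Dll4*, *Hes6* and *Sox4* in enteroendocrine-like cells.

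The libraries were then compared within each class, among genes with at least 50 UMIs in it. In stem-like cells, *Jag1* and *Notch2* were higher in the library labelled Taf4IEC and *Atoh1*, *Dll1* and *Dll4* were lower, while *Hes1* and *Notch1* stayed within 1.5-fold. This is 2 of 9 genes past the fold upwards and 3 of 9 downwards, against 16.8% and 8.17% of the 10558 genes counted in the class. *Jag1* had 143 control and 177 Taf4IEC UMIs (log2 ratio 1.60, 1.27 to 1.93), and *Notch2* had 82 and 76 (log2 ratio 1.18, 0.71 to 1.65). The 5 control stem-like clusters had *Jag1* levels from 0.0583 to 0.0869, and the 3 of the library labelled Taf4IEC from 0.174 to 0.201. Those of *Notch2* ran from 0.0275 to 0.0706 and from 0.0759 to 0.107. For both genes the clusters of the libraries did not overlap, although for *Notch2* the gap from 0.0706 to 0.0759 rests on few UMIs. Clusters of a library are not replicates. Both were past the fold in the same direction in all 8 other settings that kept a stem-like class, with log2 ratios from 1.49 to 1.77 for *Jag1* and from 0.95 to 1.46 for *Notch2*.

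Among the lower genes of the stem-like class, *Atoh1* had 100 and 19 UMIs, levels of 0.0450 and 0.0210 and a log2 ratio of -1.10 (-1.89 to -0.39). *Dll1* had 116 and 20 UMIs and a log2 ratio of -1.24 (-2.01 to -0.55), and *Dll4* had 52 and 8 UMIs and a log2 ratio of -1.41 (-2.69 to -0.32). The direction was the same in all 8 settings for each of them, although *Atoh1* and *Dll1* were past the fold among counted genes in 7 and *Dll4* in 6. Clusters of the class overlapped for *Atoh1*: the control clusters lay between 0.0194 and 0.0761 and the Taf4IEC clusters at 0.0619, 0.0116 and 0.0082, the highest being the mitotic cluster. *Hes1* had levels of 1.79 and 2.06 and a log2 ratio of 0.21 (0.12 to 0.28), close to the 0.19 of the median gene of the class, and *Notch1* had 676 and 204 UMIs and a log2 ratio of -0.44 (-0.67 to -0.21). *Sox4* had levels of 4.201 and 2.89, a log2 ratio of -0.54 (-0.60 to -0.48) that is within 1.5-fold. Stem markers summed to 23.7 and 22.3 per 10000 in the class, with 6 of 12 higher, and Paneth/goblet markers to 10.5 and 28.1.

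In enteroendocrine-like cells *Hes1* was lower and the remaining genes stayed within 1.5-fold, which is 0 of 7 genes past the fold upwards and 1 of 7 downwards against 20.2% and 4.65% of 7964 genes. *Hes1* had 101 UMIs in the control and 25 in the library labelled Taf4IEC, levels of 0.418 and 0.1003 and a log2 ratio of -2.06 (-2.75 to -1.42). The deep clusters carried this: 204 control cells led by *Gcg* and *Chgb* were at 0.395 and 99 Taf4IEC cells led by *Nts*, *Pyy*, *Gip* and *Neurog3* at 0.0493, the lowest *Hes1* level of all 27 clusters. The shallow clusters of the class were at 0.997 (44 control cells, 9 UMIs) and 0.851 (88 Taf4IEC cells, 12 UMIs). The log2 ratio was past the fold in all 9 other settings, from -3.00 to -2.01. *Dll4* (0.12, -0.46 to 0.71), *Dll1* (0.22, -0.46 to 0.91) and *Sox4* (0.02, -0.06 to 0.11) had intervals that include 0. *Jag1*, with 24 and 37 UMIs and a log2 ratio of 0.58 (-0.20 to 1.39), was just within 1.5-fold and was past it upwards in 5 of the 9 other settings. At a resolution of 1.4, however, *Dll1* and *Sox4* had log2 ratios of 1.27 and 1.20 in the class. Beside the lower *Hes1*, enteroendocrine markers summed to 223.2 and 396.8 per 10000 (11 of 13 higher) and stem markers to 6.61 and 4.92 (7 of 12 lower). Enterocyte markers summed to 27.2 and 56.5 (10 of 13 higher) and Paneth/goblet markers to 33.6 and 132.6 (14 of 17 higher) in the same cells. The part of these shifts in the *Hes1* result was not tested.

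In Paneth/goblet-like cells *Atoh1* and *Jag1* were higher and *Dll1*, *Hes1*, *Notch1* and *Sox4* lower, 2 of 9 genes upwards and 4 of 9 downwards against 13.5% and 11.3% of 8082 genes. *Atoh1* had 262 and 258 UMIs (log2 ratio 0.61, 0.36 to 0.86), and *Jag1* had 50 and 54 (log2 ratio 0.74, 0.16 to 1.33). *Dll1* had 155 and 46 UMIs (log2 ratio -1.12, -1.63 to -0.64) and was past the fold in all 9 other settings. *Hes1* had 303 and 122 UMIs (-0.68, -0.996 to -0.37), *Notch1* 57 and 9 (-2.03, -3.23 to -1.01) and *Sox4* 2198 and 760 (-0.90, -1.02 to -0.78). These last 3 changed with the clustering, and the cause was not tested. At a resolution of 1.4 the class held 191 control cells instead of 277 and 203 Taf4IEC cells instead of 191, and the log2 ratios were -0.11 for *Hes1*, 0.04 for *Notch1*, 0.44 for *Sox4* and 0.30 for *Atoh1*, against -0.72 for *Dll1* and 0.61 for *Jag1*. Within the control cluster of 277 cells stem markers summed to 12.1 and tuft markers to 0.306 per 10000, against 8.05 and 0.0909 in the Taf4IEC class, with 11 of 12 and 7 of 9 of them lower there. Paneth and goblet markers summed to 446.5 and 1476, and all 17 were higher. With mitochondrial, ribosomal protein, *Gm42418* and *AY036118* genes left out of the total, the log2 ratios of *Atoh1* and *Jag1* were 0.36 and 0.49 and no longer past the fold. *Gfi1*, with 60 and 35 UMIs and levels of 0.126 and 0.114, had a log2 ratio of -0.15 (-0.79 to 0.48).

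In enterocyte-like cells *Jag1* and *Sox4* were higher, 2 of 5 genes upwards and 0 downwards against 14.3% and 6.27% of 8547 genes. *Jag1* had 30 and 124 UMIs (log2 ratio 1.00, 0.42 to 1.63), and *Sox4* had 53 and 176 (log2 ratio 0.69, 0.24 to 1.16). Both rest on a single Taf4IEC cluster of 147 cells with only 3 enterocyte markers and none among its leading genes (*Tmem237* and *S100g* lead it), whereas a control cluster of 297 cells that *Tmem237* also leads stayed unnamed. In that cluster *Jag1* was at 0.192 and *Sox4* at 0.335, while in the 167 cells led by *Fabp1* they were at 0.0780 and 0.0468, close to or below the 0.0664 and 0.0961 of the 210 control cells led by *Apoc3* and *Fabp1*. Without the cluster the log2 ratios were 0.20 for *Jag1* and -1.36 for *Sox4*, so that no direction can be given for *Sox4*. *Hes1* levels of 0.541 and 0.655 differed by a log2 ratio of 0.28 (0.06 to 0.50), within 1.5-fold. In unnamed cells, of whose 7731 genes 31.3% were past the fold upwards and 6.33% downwards, *Jag1* had 87 and 30 UMIs (log2 ratio 1.04, 0.39 to 1.65), the only 1 of 5 genes past it.

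**Figure D3:**
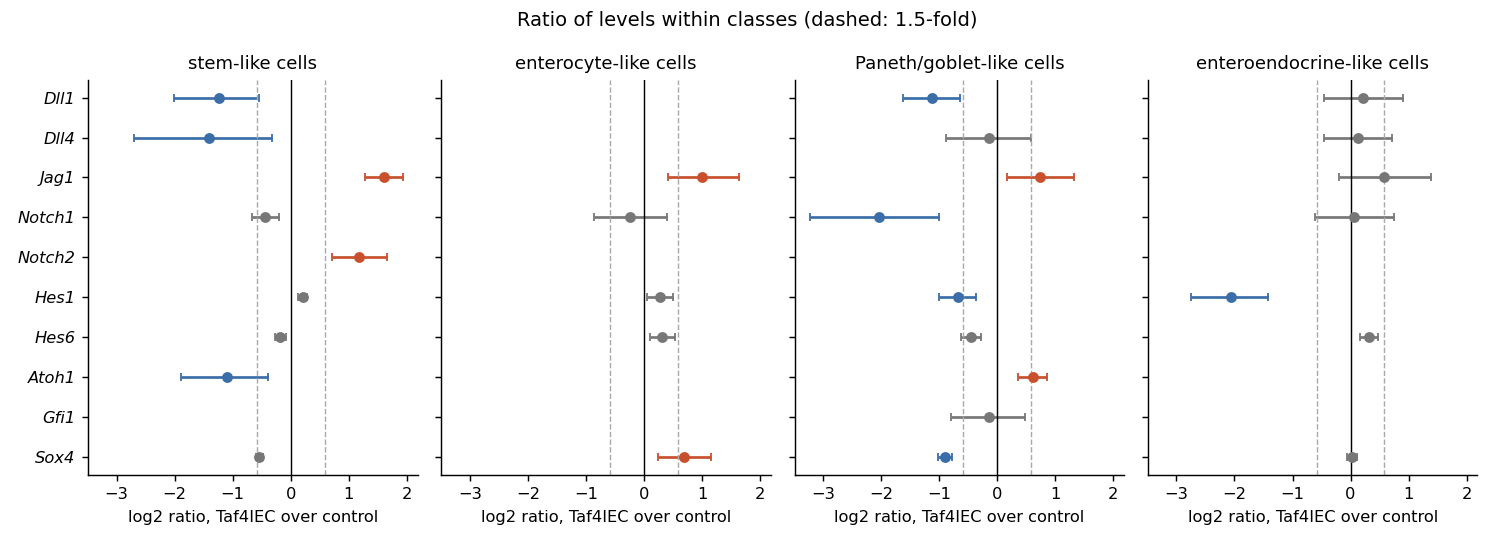
Log2 ratios of Taf4IEC over control within the 4 named classes, with 95% intervals for counting error, for genes with at least 50 UMIs in the class. Dashed lines mark 1.5-fold, and red and blue points are past it upwards and downwards. *Jag1* lies to the right of 0 in each class, *Dll1* lies to the left in stem-like and Paneth/goblet-like cells only, and *Hes1* is at -2.06 in enteroendocrine-like cells but at 0.21 in stem-like cells.

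Of the wider Notch list (other receptors, ligands, processing enzymes, nuclear partners, targets and secretory factors) 60 genes were found and 42 had at least 200 UMIs. Past the fold were 8 upwards and 1 downwards, against the 16.0% and 7.47% of all genes, and the median log2 ratio was 0.20 against 0.16. In the nuclear complex 0 of 8 genes were past the fold, with a median log2 ratio of 0.14. In ligand endocytosis it was 0 of 4, with a median of 0.39 and all 4 intervals above 0. Receptor cleavage had 1 of 9 past the fold upwards and a median of 0.19. *Rbpj* had 682 and 476 UMIs with a log2 ratio of 0.16 (-0.01 to 0.33). *Nrarp*, the only target gene besides *Hes1* that was counted, had a log2 ratio of 0.34. Most of the genes past the fold were secretory factors, 5 upwards and 1 downwards of 10. *Neurog3*, which commits cells to the enteroendocrine fate, had 1352 and 1966 UMIs (1.22, 1.12 to 1.32), and its target *Neurod1* had 959 and 1434 (1.26, 1.14 to 1.38). *Insm1*, a zinc-finger factor of endocrine cells, had a log2 ratio of 0.86, and *Spdef*, which matures goblet and Paneth cells downstream of *Atoh1*, had 385 and 425 UMIs and a log2 ratio of 0.82 (0.62 to 1.02). *Bhlha15* (Mist1), a factor of secretory cell architecture, was lower, with 446 and 157 UMIs (-0.83, -1.10 to -0.56). The fifth secretory factor upwards was *Cbfa2t3*, a corepressor (0.63), which is named here after its value was seen. Outside this group were *Poglut1*, which adds glucose to Notch receptors (92 and 146 UMIs, 1.34), *Furin*, which cuts the receptor precursor (370 and 431, 0.90), and *Dtx2*, a ubiquitin ligase of the Deltex family (189 and 199, 0.75). The enteroendocrine-like class took 6.05% of the control UMIs and 9.97% of the Taf4IEC UMIs. In 8 other settings *Neurog3* ran from 0.59 to 1.24 and was past the fold in all. *Neurod1* ran from 0.40 to 1.29 and *Insm1* from 0.25 to 0.94, each past it in 6 of 8. *Dtx2* was past it in 3 of 8, and *Bhlha15*, *Spdef*, *Furin* and *Poglut1* in 7.

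Within classes the secretory factors lay on different sides of 0, and the difference between classes was not tested. In stem-like cells 7 of 43 genes of the wider list were past the fold upwards and 5 downwards, against 16.8% and 8.17% of all genes of the class, so that the upward count is the background. *Neurog3* had 164 control and 7 Taf4IEC UMIs there (-3.26, -4.59 to -2.18), *Bhlha15* 127 and 5 (-3.37, -5.02 to -2.11) and *Insm1* 108 and 11 (-2.002, -3.05 to -1.11). In enteroendocrine-like cells, where 10 of 33 were past it upwards and 1 downwards against 20.2% and 4.65% of all genes, *Neurog3* instead had levels of 4.27 and 7.40, a log2 ratio of 0.79 (0.68 to 0.90). *Lfng*, a Fringe enzyme that modifies Notch receptors, was lower in stem-like cells (127 and 28 UMIs, -0.89) and higher in enteroendocrine-like cells (11 and 47 UMIs, 2.05). In Paneth/goblet-like cells 2 of 34 were past the fold upwards, *Spdef* (331 and 379 UMIs, 0.83) and *Dtx2* (1.00), and 2 downwards, *Insm1* (-1.40) and the ligand gene *Dll3* (-1.84), against 13.5% and 11.3% of all genes. In enterocyte-like cells 2 of 29 were past it upwards and 1 downwards, against 14.3% and 6.27%. The wider genes given for single classes were picked after their values were seen.

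Across the 27 clusters of both libraries, *Hes1* ran against *Dll4*, with a Pearson correlation of log2 levels of -0.80, and less so against *Dll1* (-0.43), while no relation to *Atoh1* was seen (-0.02). The other strong pairs were *Hes6* with *Sox4* (0.80), *Notch1* with *Notch2* (0.68) and *Dll1* with *Hes6* (0.66). Clusters share a library, differ in depth and are few, so these are descriptions. The highest *Hes1* levels were 2.49 in 176 control cells with *Olfm4* and *Hes1* among their leading genes and 2.48 in 34 Taf4IEC cells led by the S phase genes *Pclaf* and *Hells*. At the other end, 29 Taf4IEC cells led by *Tph1*, the enzyme of serotonin synthesis, had *Hes1* at 0.0932, *Dll4* at 0.279 and *Sox4* at 3.73. By the same measure the genes most like *Hes1* were *Pdss1* (0.92), *Cftr* (0.88), *Fgfbp1* (0.88), *Aqp1* (0.87) and *C1qbp* (0.83), and those most like *Atoh1* were *Spdef* (0.92), *Creb3l4* (0.90), *Qsox1* (0.86), *Tpsg1* (0.85) and *Pnliprp2* (0.83).

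**Figure D4:**
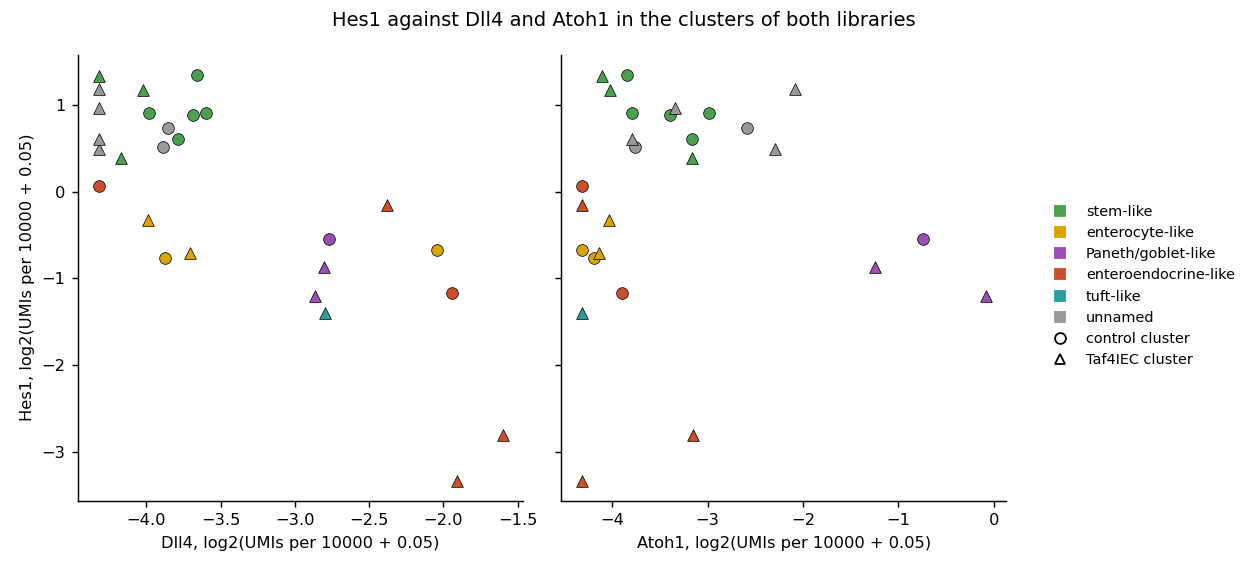
*Hes1* against *Dll4* (left) and against *Atoh1* (right) in the 27 clusters, as log2 of UMIs per 10000 plus 0.05, with colours for the class and circles for control and triangles for Taf4IEC clusters. *Hes1* is lower where *Dll4* is higher (r = -0.80), with enteroendocrine-like clusters at the lower right, whereas the Paneth/goblet-like clusters stand alone at high *Atoh1* and give no trend (r = -0.02).

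Whether *Hes1* and *Atoh1* exclude each other was asked cell by cell. Each cell was thinned at random to 5000 UMIs so that depth is equal, which kept 1988 control and 758 Taf4IEC cells and left out 575 and 1053. In the control, 741 cells (37.3%) had a *Hes1* UMI, 92 (4.63%) an *Atoh1* UMI and 16 (0.805%, 0.461 to 1.30) both, whereas the product of both shares gives 34.3 cells. *Hes1* was thus seen in 17.4% (10.3 to 26.7) of the cells with *Atoh1* and in 38.2% (36.0 to 40.5) of those without, and its level was 0.435 (0.266 to 0.671) against 1.38 (1.30 to 1.45). In the library labelled Taf4IEC 205 cells (27.0%) had *Hes1*, 30 (3.96%) *Atoh1* and 7 (0.923%, 0.372 to 1.89) both, against 8.11 from the product. *Hes1* was seen there in 23.3% (9.93 to 42.3) of the cells with *Atoh1* and in 27.2% (24.0 to 30.6) of those without. The share with both genes differed by 0.12 points (-0.62 to 1.15) between the libraries. Few cells carry these values: another random draw gave 17 control cells against 36.0 and 12 Taf4IEC cells against 8.19. At 10000 UMIs per cell 47 control cells had both against 72.0 and 11 Taf4IEC cells against 18.0, and at 2000 UMIs 4 against 7.53 and 2 against 3.16. The Taf4IEC count thus lay on either side of the product, depending on the setting. At 5000 UMIs the intervals of the library labelled Taf4IEC overlap, so a lower share of *Hes1* in its *Atoh1* cells was not detectable at this depth. Without thinning 128 control and 52 Taf4IEC cells had both, against 129.6 and 32.0, and deeper cells more often hold a UMI of any gene. *Atoh1* was seen in 1 of 197 control (0.508%) and 2 of 230 Taf4IEC (0.870%) enterocyte-like cells at the same depth, and *Hes1* in 24.4% and 22.2% of them. How far free RNA adds to the cells with both genes was not tested.

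The *Atoh1* cells were largely Paneth/goblet-like, 61 of 92 in the control and 23 of 30 in the library labelled Taf4IEC. Within that class *Hes1* was seen in 8 of 61 control cells with *Atoh1* (13.1%, 5.84 to 24.2) and in 24.2% (18.5 to 30.8) of those without, and in 6 of 23 Taf4IEC cells (26.1%, 10.2 to 48.4) and 13.5% (6.68 to 23.5), so that the intervals overlap in both libraries. A further 22 of the 92 control cells with *Atoh1* were stem-like. Of these 5 had *Hes1* (22.7%, 7.82 to 45.4), against 47.3% (44.2 to 50.4) of the stem-like cells without *Atoh1*, and these intervals overlap as well. In the library labelled Taf4IEC 1 of 4 stem-like cells with *Atoh1* had *Hes1*. The classes differ in *Hes1* themselves, and their part in the contrast over all cells was not tested. *Dll1* and *Dll4* had other carriers. Of 62 control cells with *Dll1*, 26 were Paneth/goblet-like and 22 stem-like, whereas 11 of 22 Taf4IEC cells were enteroendocrine-like. Of the *Dll4* cells 23 of 55 and 13 of 18 were enteroendocrine-like, and of the *Gfi1* cells 16 of 18 and 5 of 5 were Paneth/goblet-like.

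Other pairs were counted in the same way. *Hes1* and *Dll1* were seen together in 15 control cells against 23.1 from the product and in 3 Taf4IEC cells against 5.95. *Hes1* and the receptor gene *Notch1* met in 76 control cells against 75.7, and in 21 Taf4IEC cells against 14.1. *Atoh1* met *Gfi1* in 5 control cells against 0.833 and *Dll1* in 7 against 2.87. In the library labelled Taf4IEC it met each in 1 cell, against 0.198 and 0.871. *Atoh1* met *Sox4* in 47 control cells against 56.6 and *Hes6* in 38 against 41.7. The Taf4IEC counts of these pairs were 14 against 13.3 and 10 against 14.0. Cells with *Dll1* or *Atoh1*, the genes that open the secretory path, made up 7.39% (6.28 to 8.63) of control and 6.73% (5.05 to 8.75) of Taf4IEC cells at this depth. Their *Hes1* level was 0.449 (0.309 to 0.631) against 1.405 (1.33 to 1.48) in the other control cells, and 0.549 (0.3002 to 0.921) against 1.07 (0.964 to 1.18) in the other Taf4IEC cells, so that the intervals did not overlap in either library. The Taf4IEC intervals lie close, and the lower level rests on 14 *Hes1* UMIs in 51 cells of 1 random draw. The part of the classes in this contrast was not tested.

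**Figure D5:**
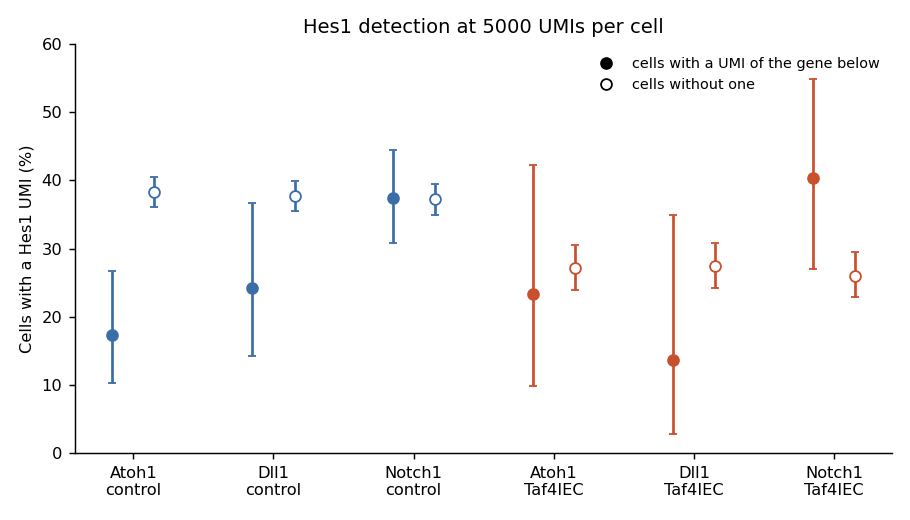
Share of cells with a *Hes1* UMI after thinning to 5000 UMIs, among cells with (filled) and without (open) a UMI of *Atoh1*, *Dll1* or *Notch1*, in the control (blue) and Taf4IEC (red) library, with 95% Clopper-Pearson intervals. In the control the share is 17.4% with and 38.2% without *Atoh1*, whereas *Notch1* makes no such difference there, and the Taf4IEC intervals are wide.

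Depth itself moved with some of these levels. Among cells under 2000 UMIs, the *Hes1* level of 444 control cells was 1.27 (0.977 to 1.63) and that of 890 Taf4IEC cells 1.57 (1.30 to 1.87), and in cells of at least 5000 UMIs the levels were 1.37 (1.34 to 1.41) and 1.09 (1.05 to 1.14). *Sox4* was at 1.67 and 1.79 in the shallow and at 3.85 and 2.69 in the deep cells. *Jag1* was at 0.144 (0.0579 to 0.297) and 0.274 (0.170 to 0.419) in the shallow and at 0.0822 (0.0734 to 0.0917) and 0.166 (0.1498 to 0.183) in the deep cells, higher in the library labelled Taf4IEC in both bands, though only the deep intervals are apart.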

How the data were processed

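Live cells of 1 control and 1 Taf4IEC enteroid culture were captured with the 10X Genomics 3′ assay, which counts transcripts near their end. The authors processed reads with bcl2fastq 2.17.1.14 and Cell Ranger 3.1 on mm10 and deposited raw UMI counts per gene and cell, which are whole numbers without normalization. Every cell met the filter stated by the study (200 to 6000 genes, under 15% mitochondrial reads). The deposited counts were summed and scaled in Python 3.11.15 (numpy 2.4.6, scipy 1.17.1, pandas 2.3.3). Each library was clustered in R 4.3.3 with Seurat 5.3.0 (LogNormalize, 2000 variable genes, UMI count and mitochondrial percent regressed out, 20 components, resolution 0.9). A cluster was named when at least 3 markers of a class had 10 UMIs and 1.5 times the mean level of both libraries, except where another class had more markers among the 10 leading genes, or where no own marker led and low-quality genes did or depth was under a set share of the median. Scrublet (scanpy 1.11.5) called 10 and 0 doublets, which were kept. Intervals are exact Poisson for levels, conditional binomial for ratios, Clopper-Pearson for shares and Newcombe for their difference. The steps were tested on simulated data. There was 1 library per condition, so no p-value was computed. edgeR 4.0.16 (TMM) and DESeq2 1.42.0 gave size factors only.

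The genes and lists were chosen with earlier results of these data known. Named genes are the 10 genes, the 8 wider genes with the highest absolute log2 ratio, *Rbpj*, *Spdef*, and the 5 genes most like *Hes1* and *Atoh1*; leading genes of clusters, further pairs and wider genes within classes were named after their values were seen. The alternatives that weight classes to the control, leave clusters without a leading marker of their own unnamed, or keep only the largest deep cluster per class were added after seeing the data. 3′ counts were compared only within a gene.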

Additional observations from a re-analysis of the deposited data

Results flagged for a closer look

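Genes past the fold in opposite directions in 2 cell classes, with intervals of the log2 ratios (Taf4IEC over control) on opposite sides of 0, were singled out. *Atoh1* was at 0.61 in Paneth/goblet-like cells and at -1.10 in stem-like cells, and *Sox4* was at 0.69 in enterocyte-like cells and at -0.90 in Paneth/goblet-like cells. *Hes1* (0.21 in stem-like, -2.06 in enteroendocrine-like cells) and *Hes6* (0.32 in enteroendocrine-like, -0.46 in Paneth/goblet-like cells) also had intervals on opposite sides of 0. Neither was past the fold upwards in any class. The difference between the classes was not tested, since there was 1 library per condition. The *Atoh1* directions held in all 9 and all 8 other settings, but *Atoh1* was past the fold among counted genes in only 6 and 7 of them. Clusters of the stem-like class also overlapped between the libraries for *Atoh1*. Both *Sox4* directions turned in some settings and depend on how the clusters were made.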

How the results depend on the processing

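With 1 library per condition, no replicate could be left out. No paired analysis was possible because the result comes from no test and each condition has 1 library. Over all cells 2 of the 9 genes counted were past the fold. The count was 4 with mitochondrial, ribosomal protein, *Gm42418* and *AY036118* genes left out of the total, with TMM or with DESeq2 factors (1 higher and 3 lower each), and 4 (2 and 2) with the mean over cells. It was 1 with a ratio of 2, and 0 with each cell thinned to 2000 UMIs, where 3 genes were counted. The first 3 of these scalings moved the median gene to -0.03 or -0.04 and the split of all genes past the fold from 1598 higher and 747 lower to 966 and 1181, 929 and 1222, or 921 and 1227. With the mean over cells 2098 of the 10002 genes were past it upwards and 512 downwards. The wider list had 9 of 42 past the fold, 4 of 13 with cells thinned to 2000 UMIs, 16 of 56 from 20 UMIs and 3 of 42 with a ratio of 2. All genes moved too, to 374 higher and 201 lower of 3417 with thinned cells. From 20 UMIs they were 2919 and 1299 of 13155, and with a ratio of 2 they were 552 and 348 of 10002. Within classes 14 ratios were past the fold, and 9 when markers had to reach 2 times the mean, where no stem-like class remained to compare. *Sox4* turned in enterocyte-like cells to -1.91 at resolution 1.4, -1.48 with the genes kept among the variable genes, -1.36 with the marker level of 2 times or with clusters without an own leading marker unnamed, and -1.04 with the largest deep cluster, and in Paneth/goblet-like cells to 0.44 and 0.29 in the first pair of these. At resolution 1.4 *Notch1* turned to 0.039 in Paneth/goblet-like cells. The cause was not tested. The share with *Hes1* and *Atoh1* differed by 0.12 points at 5000 UMIs, by -0.97 at 10000 and by -2.12 without thinning. Among values of single genes under all alternatives, 305 stayed within their interval, 100 moved beyond it without turning a called direction, and the 8 given above turned.

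Depth limits the rare genes: *Gfi1*, *Notch2* and *Dll4* had 38 to 167 UMIs per library, and only 16 and 7 cells had both *Hes1* and *Atoh1* at 5000 UMIs.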

Other observations

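The tuft-like cluster of 15 Taf4IEC cells, named from 7 tuft markers, had no control counterpart to compare. Its *Sox4* level was 19.8 UMIs per 10000 (17.9 to 21.8), above the 11.4 (10.9 to 11.9) of the enteroendocrine-like cluster with the next highest level. Its *Hes6* level was 3.79 (3.01 to 4.71), *Dll1* stood at 0.514 (0.257 to 0.921) on 11 UMIs, and *Hes1* at 0.327 (0.132 to 0.675) on 7. *Atoh1*, *Jag1* and *Gfi1* had 0 UMIs, which with 213805 UMIs in the cluster allows up to 0.173 per 10000 by the Poisson interval.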
